A study of Drosophila melanogaster with 8 samples.

Results

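The genes described here are the importin alpha family of Drosophila melanogaster, its partner importin beta and the GTPase Ran, 5 of the 15146 genes in each deposited table. They were chosen by name, as Pen, Kap-alpha1, Kap-alpha3, Fs(2)Ket and Ran, with the call of Pen in sperm already known. All 5 were found in both tables, Ran through its gene identifier because the tables spell it ran. All flies were of the w1118 laboratory strain. RNA was sequenced from the spermatozoa of adult males fed a diet with 30 g/L sugar (medium) or 300 g/L sugar (high), and from whole stage 17 F1 embryos of males fed either diet. Stage 17 is the end of embryonic development. Each of the 4 groups had 2 libraries, and the tables hold 1 combined value per gene and group, in FPKM (fragments counted per kilobase of transcript, scaled to library size). The values therefore carry no spread between libraries, and depth is unknown. The labels do not say whether libraries came from separate collections, so the authors' p-values may measure a technical spread.

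Proteins with a classical nuclear localization signal enter the nucleus bound to an importin alpha adaptor, which is carried through the nuclear pore by importin beta. Inside the nucleus Ran in its GTP-bound form binds importin beta and releases the cargo, and a dedicated exportin returns importin alpha to the cytoplasm. In flies the 3 conserved importin alpha genes are not interchangeable: Pen (importin alpha2, or pendulin) is needed for gamete formation in both sexes, and Kap-alpha3 is needed in somatic tissue and in egg formation. Importin beta is encoded by Fs(2)Ket (Ketel), known from dominant female-sterile alleles that stop the first nuclear divisions of the embryo.

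The genes lie apart in the genome. In BDGP5 coordinates Pen (FBgn0011823) is at 2L 10056906 to 10060095, Kap-alpha1 (FBgn0024889) at 3L 19800347 to 19803498 and Kap-alpha3 (FBgn0027338) at 3R 5400206 to 5403506. The locus of Fs(2)Ket (FBgn0262743) is 2L 20734710 to 20752341, and that of Ran (FBgn0020255) is X 11038909 to 11042622. Of the 5, Fs(2)Ket is the one whose locus is shared with another gene, CG9319, which had 14.9 and 14.3 FPKM in sperm and 7.80 and 9.00 FPKM in embryos, so the values of both are less certain. In the newer BDGP6 annotation the proteins of Pen, Kap-alpha1 and Kap-alpha3 have 522, 543 and 514 codons, that of Fs(2)Ket has 884 and that of Ran 216. Pen and Kap-alpha1 have 1 annotated transcript each there, Kap-alpha3 and Ran have 4, and Fs(2)Ket has 5. FPKM values are scaled to length, so the levels of these genes can be set side by side within a group.

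The sample types carried the RNAs of their labels. Of 33 spermatid markers, 31 reached a mean of 1 FPKM in sperm and 5 did so in embryos, and 16 of 21 cuticle markers reached it in embryos against 6 in sperm. Sperm also contained RNA of other tissues: of 21 muscle markers 17 reached a mean of 1 FPKM, and the median of these was 219 FPKM at both sugar levels. The median of the 31 spermatid markers was lower, 17.4 FPKM at medium and 40.2 FPKM at high sugar. CG18628 alone took 31.1% of all FPKM in medium and 29.4% in high sugar sperm. In such bulk samples fewer cells of a type and less RNA per cell cannot be told apart.

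Pen showed the widest span of the 5 genes. Its level was 23.5 FPKM in sperm of medium sugar males, 62.0 FPKM in sperm of high sugar males, 2.30 FPKM in embryos of medium sugar fathers and 1.61 FPKM in embryos of high sugar fathers. Pen RNA was thus abundant in both sperm groups, above 87.6% and 95.0% of all genes, and low in both embryo groups, above 43.6% and 38.9% of genes. In sperm Pen rose 2.63-fold with high sugar, a log2 ratio of 1.39. The authors' deposited table gives an unadjusted p of 0.0003 and an adjusted p of 0.037. Of the 6453 sperm genes that the authors tested, 22 were called at an adjusted p under 0.05, which is 0.341%, and 19 genes had a smaller p than Pen. The call of Pen is among the results the genes were chosen on, so it is a description here. When the Benjamini-Hochberg adjustment was recomputed from the deposited p-values of tested genes, Pen came to 0.0968, above the threshold, and 0.248% of genes were called. In embryos the ratio of Pen was 0.702, for which the authors' deposited table gives an unadjusted p of 0.216 and an adjusted p of 0.999.

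**Figure D1:**
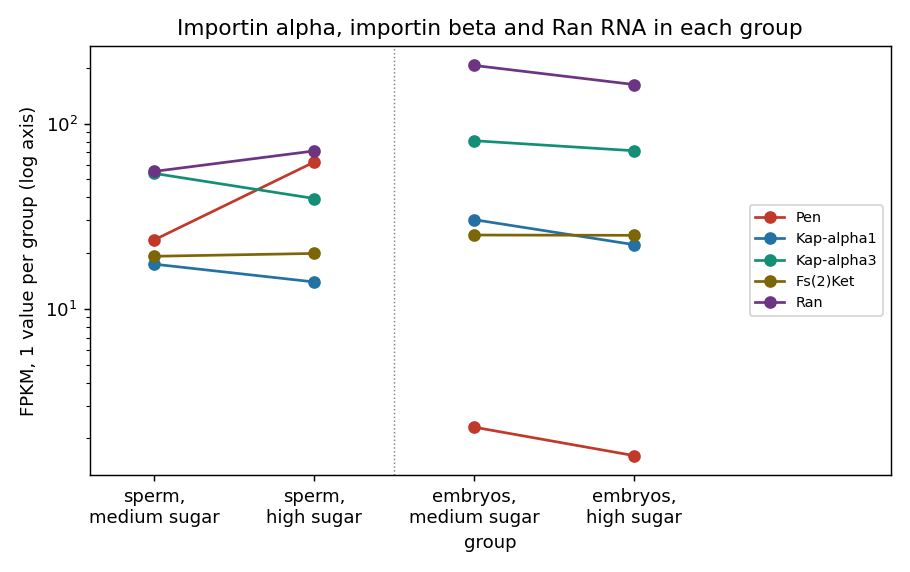
FPKM (log axis) of the 5 genes in the 4 groups, 1 deposited value per group, with a line joining the sugar levels within a tissue. Pen climbs from 23.5 to 62.0 FPKM in sperm and lies at 2.30 and 1.61 FPKM in embryos, while the lines of the other 4 genes are flatter.

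Kap-alpha3 was the most abundant importin alpha in 3 of the 4 groups, and Kap-alpha1 was the scarcer of these adaptors in sperm. Kap-alpha3 had 53.9 and 39.4 FPKM in medium and high sugar sperm, a ratio of 0.732, and 80.8 and 71.3 FPKM in embryos, a ratio of 0.883. For Kap-alpha3 the authors' deposited table gives an unadjusted p of 0.181 in sperm and 0.529 in embryos. Kap-alpha1 had 17.4 and 14.0 FPKM in sperm, a ratio of 0.802, and 30.3 and 22.2 FPKM in embryos, a ratio of 0.733. For Kap-alpha1 that of the authors' deposited table was 0.453 in sperm and 0.0869 in embryos. Neither gene was called in either tissue, with an adjusted p in the authors' deposited table of 0.996 in sperm and 0.999 in embryos. In sperm, then, the values of both were lower in the high sugar group, where that of Pen was higher.

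Because the 3 genes encode the same kind of adaptor, their FPKM can be summed into an importin alpha pool. The pool leaves out the importin alpha relative alphaKap4, which in embryos was above Pen, at 3.64 FPKM with medium and 3.39 FPKM with high sugar. In medium sugar sperm the pool held 94.8 FPKM, of which Kap-alpha3 made up 56.8%, Pen 24.8% and Kap-alpha1 18.4%. In high sugar sperm it held 115 FPKM, of which Pen made up 53.7%, Kap-alpha3 34.2% and Kap-alpha1 12.1%. The leading importin alpha RNA was therefore Kap-alpha3 in one sperm group and Pen in the other. The sum of the other two genes without Pen was 71.3 FPKM in medium and 53.4 FPKM in high sugar sperm, so the pool as a whole was 1.22 times as large in the high sugar group. In embryos the pool held 113 and 95.1 FPKM, with Pen at 2.02% and 1.69%, Kap-alpha1 at 26.7% and 23.3% and Kap-alpha3 at 71.3% and 75.0%. These shares use the values that chose Pen and carry no error.

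**Figure D2:**
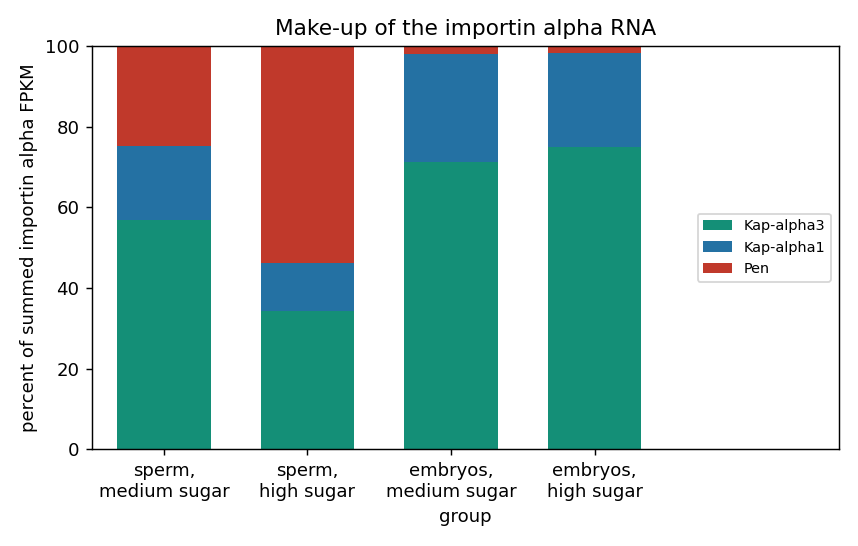
Share (percent) of each importin alpha gene in the summed FPKM of the 3 genes, stacked for each of the 4 groups. Pen takes 24.8% of the pool in medium sugar sperm, 53.7% in high sugar sperm and 2.02% and 1.69% in embryos.

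Importin beta differed little between the sugar levels. Fs(2)Ket had 19.2 and 19.9 FPKM in sperm, a ratio of 1.04, and 25.0 and 24.9 FPKM in embryos, a ratio of 0.996. Unadjusted p-values of the authors' deposited table were 0.889 in sperm and 0.985 in embryos. A p above the threshold does not show equal levels, and the embryo ratio lies so near to 1 that its direction turned when ratios were centred on those of abundant genes (10 FPKM or more), whose median log2 ratio was -0.04 in embryos and -0.08 in sperm. The importin alpha pool was 4.93 and 5.80 times the Fs(2)Ket level in medium and high sugar sperm, and 4.53 and 3.82 times in embryos.

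Ran was the most abundant of the 5 in every group. It had 55.2 and 71.2 FPKM in medium and high sugar sperm, a ratio of 1.29, and 206 and 162 FPKM in embryos, a ratio of 0.788. The authors' deposited table gives Ran an unadjusted p of 0.310 in sperm and 0.220 in embryos, and it was not called in either. In medium sugar sperm Ran and Kap-alpha3 were nearly level, followed by Pen, Fs(2)Ket and Kap-alpha1. In high sugar sperm Pen stood second to Ran, and in both embryo groups Pen was the lowest. With 1 value per group it cannot be said which neighbours in these orders differ beyond their spread.

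In embryos 0 of the 5 genes were called by the authors' test, also with the adjustment recomputed, and 0 had an unadjusted p under 0.05, where 82 of 10163 tested embryo genes, 0.807%, were called and 339, or 3.34%, had such a p. All 5 log2 ratios were below 0 in embryos before centring, with a median of -0.34. Among all genes that reached a mean of 1 FPKM, 56.9% were below 0 and the median was -0.04. In sperm 3 of the 5 were above 0 and 2 below, where 52.4% of all genes were below 0.

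Between the tissues Pen and Ran stood at opposite ends. The tables may have been normalized separately, so a difference in level between tissues is a description that depends on scaling. As deposited, Pen was 10.3 times as high in sperm as in embryos at medium sugar and 38.5 times at high sugar. Ran was 3.73 and 2.28 times as high in embryos as in sperm. Both kept their direction when each table was rescaled to a common sum without CG18628 or to equal medians: Pen in sperm over embryos was then 15.1 to 18.5 at medium and 55.5 to 73.9 at high sugar, and Ran 0.394 to 0.484 and 0.632 to 0.842. The deposited sperm over embryo ratios of Kap-alpha1, Kap-alpha3 and Fs(2)Ket lay between 0.552 and 0.798, and the common sum brought them to 1.04 to 1.53, so no direction between tissues can be given for these genes.

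The genes that turn the Ran cycle were next described, with 54 transport genes in all on 4 lists. Bj1, the fly RCC1, loads Ran with GTP on chromatin. It had 3.10 and 3.75 FPKM in medium and high sugar sperm and was not tested there, and 16.7 and 11.0 FPKM in embryos (unadjusted p of 0.028 and adjusted p of 0.999 from the authors' deposited table). RanGap, which makes Ran hydrolyse GTP in the cytoplasm and whose truncated copy is the Segregation distorter of the male germline, had 2.38 and 1.16 FPKM in sperm, not tested, and 10.5 and 6.89 FPKM in embryos. It shares its locus with 2 other genes. Nup358, a Ran-binding protein of the cytoplasmic pore filaments, had 18.3 and 14.2 FPKM in sperm and 11.7 and 9.60 FPKM in embryos. The scaffold protein RanBPM had 12.6 and 11.6 FPKM in sperm and 11.7 and 11.6 FPKM in embryos. Both regulators of the Ran nucleotide, Bj1 and RanGap, were thus below Ran itself in all 4 groups.

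Of 3 copies or relatives of transport genes, Ntf-2r was listed at 0 in both sperm groups and ran-like in both embryo groups. This Ran copy, which has a single exon in BDGP6 and 217 codons, had 8.37 and 5.73 FPKM in sperm and was listed at 0 in both embryo groups. For ran-like the authors' deposited table gives an unadjusted p of 0.549 in sperm. The importin alpha relative alphaKap4 (CG10478 in the tables, 442 codons in BDGP6) was listed at 0 in medium sugar sperm and had 3.61 FPKM in high sugar sperm, which the authors did not test, and it had 3.64 and 3.39 FPKM in embryos. Its locus is shared with 1 other gene. Ntf-2r, a copy of Ntf-2 with a single exon, was listed at 0 in both sperm groups and in high sugar embryos, with 0.305 FPKM in medium sugar embryos. It is outside the rule for named genes. How reads shared between such copies were assigned is not stated in the labels or headers.

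Of 15 other import receptors and adaptors, 0 of 9 tested in sperm and 0 of 12 tested in embryos were called. Karybeta3, whose human counterpart imports ribosomal proteins and histones, was the most abundant in sperm with 88.4 and 86.6 FPKM, and had 26.9 and 28.0 FPKM in embryos. The importin-beta-like receptor msk had 38.7 and 32.2 FPKM in sperm and 27.6 and 24.7 FPKM in embryos. Ntf-2, which carries Ran in its GDP form back into the nucleus, had 16.8 and 26.7 FPKM in sperm, a ratio of 1.59 (unadjusted p of 0.243 from the authors' deposited table), and 81.7 and 71.5 FPKM in embryos. Like Ran, Ntf-2 thus had its higher sperm value at high sugar and its higher embryo value at medium sugar. The importin Ranbp9 had 5.40 and 2.98 FPKM in embryos (unadjusted p of 0.0074 and adjusted p of 0.473 from the authors' deposited table) and 8.96 and 7.36 FPKM in sperm. Ranbp11 had 7.03 and 5.19 FPKM in sperm and 2.61 and 2.13 FPKM in embryos, and Trn-SR, the receptor of splicing factors, 4.36 and 3.14 FPKM in sperm and 4.03 and 3.55 FPKM in embryos. CG32164, an importin named Arts in current annotation, had 6.78 and 7.17 FPKM in sperm and 5.42 and 4.63 FPKM in embryos. The loci of msk and Ranbp11 are each shared with 2 other genes and that of CG32164 with 1.

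All 4 export receptors were tested in both tissues and 0 were called. Cas, the exportin that returns importin alpha to the cytoplasm, had 11.3 and 9.27 FPKM in sperm (ratio 0.819, unadjusted p of 0.609 from the authors' deposited table) and 6.21 and 5.16 FPKM in embryos (ratio 0.830). It shares its locus with 3 other genes. The general exportin emb (CRM1) had 20.7 and 21.5 FPKM in sperm and 27.0 and 24.9 FPKM in embryos. Exp6, the exportin of actin, had 4.44 and 6.14 FPKM in sperm and 8.85 and 7.87 FPKM in embryos, and Ranbp21, an exportin of RNA, 3.64 and 4.66 FPKM in sperm and 1.89 and 2.14 FPKM in embryos. The exportin that serves importin alpha directly therefore did not have its higher sperm value where Pen did.

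Nucleoporins, the proteins of the pore itself, were mostly a few FPKM in both tissues, and 0 of 14 tested in sperm and 0 of 29 tested in embryos were called. The highest in sperm were sec13 (21.9 and 23.1 FPKM), which also serves in vesicle coats, Mtor of the nuclear basket (13.6 and 13.1 FPKM) and Nup153, also of the basket (8.31 and 8.39 FPKM). The widest sperm ratios were those of mbo, the fly Nup88 (6.51 and 2.20 FPKM), CG11875 or Nup37 (1.51 and 4.34 FPKM, not tested) and Nup75 (4.37 and 1.63 FPKM, not tested). At an unadjusted p under 0.05 there were 3 in sperm, with Nup214 (3.69 and 7.05 FPKM) above and mbo and gp210 (8.95 and 4.69 FPKM) below, of which Nup214 and gp210 were picked with their values in view. In embryos the widest were CG5857 or Ndc1 (3.63 and 2.50 FPKM, not tested in sperm), CG7262 or Nup93-2 (3.61 and 4.80 FPKM, not tested in sperm) and CG11092 or Nup93-1 (11.6 and 8.89 FPKM). The locus of CG5857 is shared with 1 other gene.

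Over the 4 lists together, 0 of 31 tested transport genes were called in sperm and 0 of 50 in embryos by the authors' test, also with the adjustment recomputed. At an unadjusted p under 0.05 there were 1 higher and 2 lower in sperm and 0 higher and 2 lower in embryos, against 3.95% and 3.34% of all tested genes in either direction. The median log2 ratio over the 49 that reached a mean of 1 FPKM was -0.06 in sperm, beside -0.03 over all such genes, and centring turned its sign (0.015). In embryos the median over 49 genes was -0.18, beside -0.04 over all such genes, and 39 of the 49 were below 0, which is 79.6% against 56.9% of all genes. No test was made of these medians. Pen, with a log2 ratio of 1.39 in sperm that was among the reasons for its choice, had above it on these lists CG11875 (1.46) and alphaKap4, which is listed at 0 at medium sugar, neither of them tested. Of 6403 tested sperm genes above 0 at medium sugar and at 1 FPKM or more, 355 had a higher log2 ratio than Pen.

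**Figure D3:**
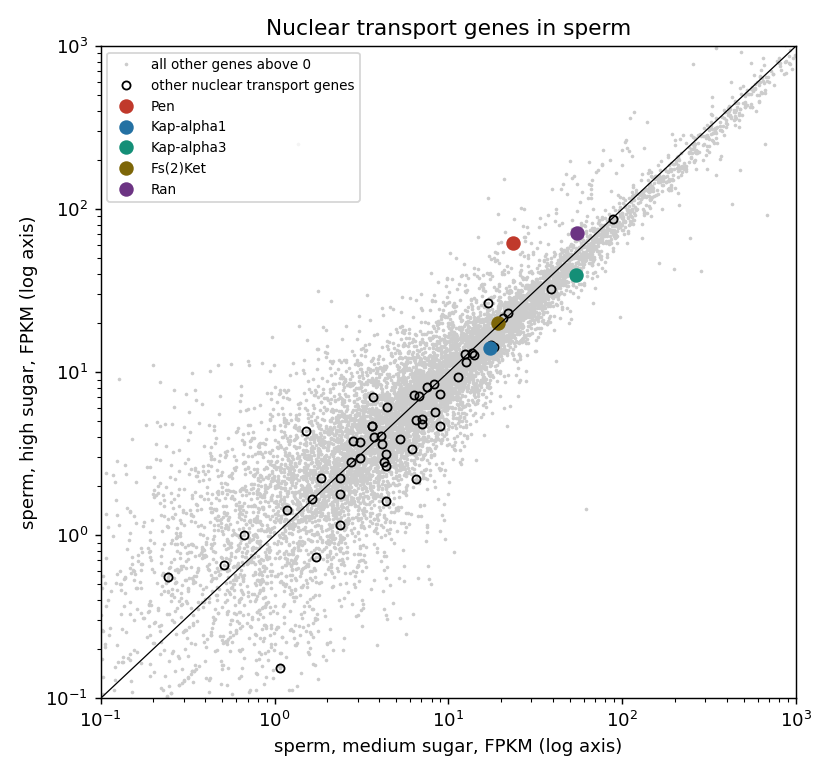
FPKM in medium sugar sperm (x) against high sugar sperm (y), both on log axes from 0.1 to 1000, for genes above 0 in both groups, with the line of equal values. Pen (23.5 and 62.0 FPKM) lies above the line, Fs(2)Ket on it (19.2 and 19.9 FPKM), and most other transport genes (open circles) lie near it.

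Most spermatid and male gland markers had higher values in high sugar sperm, as Pen did, though few passed the test. Of 29 tested spermatid markers 3 rose in sperm (S-Lap1, S-Lap7 and loopin-1) and 0 fell in the authors' deposited table, where 0.325% of tested genes rose. The locus of S-Lap7 is shared with 1 other gene. The marker lists were chosen with earlier results of these data known, so such counts are a description. Of the 31 at 1 FPKM or more, 29 had log2 ratios above 0, with a median of 1.02, and the summed level of all 33 was 994 FPKM at medium and 2242 FPKM at high sugar, with none listed at 0. Mst87F had 106 and 264 FPKM and Mst84Db 133 and 236 FPKM. The accessory gland and ejaculatory duct markers summed to 697 and 1371 FPKM, with 13 of 16 above 0 and 3 of 19 listed at 0 at medium sugar, and 1 of 13 tested was called, Dup99B (254 and 778 FPKM). With the adjustment recomputed over tested genes the adjusted p of Dup99B was 0.0849, above the threshold. Spermatocyte regulators summed to 31.7 and 36.6 FPKM, most of it bol (22.6 and 25.8 FPKM), which had 72.1 and 78.7 FPKM in embryos. Of these 13 regulators 7 were listed at 0 at medium sugar and 2 at high sugar. Of the 5 at 1 FPKM or more 3 were above 0 with a median of 0.19. Maternal and germline markers, many of which the male germline shares, summed to 139 and 158 FPKM, and of the 9 at 1 FPKM or more 4 were above 0 with a median of -0.0067. In sperm 1 spermatocyte regulator and 6 maternal and germline markers were tested and 0 were called, beside 0.341% of all tested genes. With so few tested, the absence of calls says little. Of the 6, the authors' test put 2 higher at high sugar and 0 lower at an unadjusted p below 0.05. The 2 were orb (4.45 and 14.5 FPKM, unadjusted p of 0.0126) and exu (37.3 and 60.9 FPKM, unadjusted p of 0.038). Their adjusted p was 0.650 and 0.996. Muscle markers summed to 5110 and 4757 FPKM, with 0 of 16 tested called. Fat body and oenocyte markers summed to 726 and 388 FPKM, and most of this difference lay in Tsf1 (429 and 107 FPKM). Tsf1 was the 1 call of 4 tested there, and the 1 gene called lower among all 6453 tested sperm genes. Of the 4 at 1 FPKM or more, 3 were below 0, with a median log2 ratio of -0.16. Cyp4g1 (8.29 and 29.9 FPKM), whose locus is shared with 15 other genes, was above 0. The part of these tissues in the difference of Pen was not tested.

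In embryos the maternal and cell division lists, like Pen, had most of their values lower at high than at medium sugar, while cuticle and muscle markers had most of theirs higher. Maternal and germline markers summed to 203 and 176 FPKM, 13 of 16 at 1 FPKM or more were below 0 with a median log2 ratio of -0.41, and of 17 tested 4 fell (osk, smg, krimp and Cp15). Here 0.0984% of all tested genes fell. The marker lists used in embryos were also chosen with earlier results known, so their counts are a description. Cell division markers summed to 406 and 300 FPKM, 26 of 29 were below 0 with a median of -0.39, and 2 of 29 fell (CycB and pim). Of the maternal markers 1 was listed at 0 at medium sugar and 2 at high sugar, and none of the cell division markers. Cuticle markers summed to 1154 and 2244 FPKM, 14 of 16 were above 0 with a median of 1.18, and of 18 tested 6 rose, where 0.708% of all tested genes rose. Muscle markers summed to 8023 and 9082 FPKM, and 17 of 17 were above 0 with a median of 0.21. Of 14 tested neuron and glia markers 1 rose, and their median was 0.02. The members' embryo log2 ratios, from -0.49 for Pen to -0.0052 for Fs(2)Ket, lay within the range of the maternal and cell division lists. They also lay within those of nucleoporins (-0.52 to 0.40), the 4 transport lists together (-0.84 to 0.40) and accessory gland and duct markers (-0.90 to 0.78). The part of the marker tissues in the members' ratios was not tested.

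**Figure D4:**
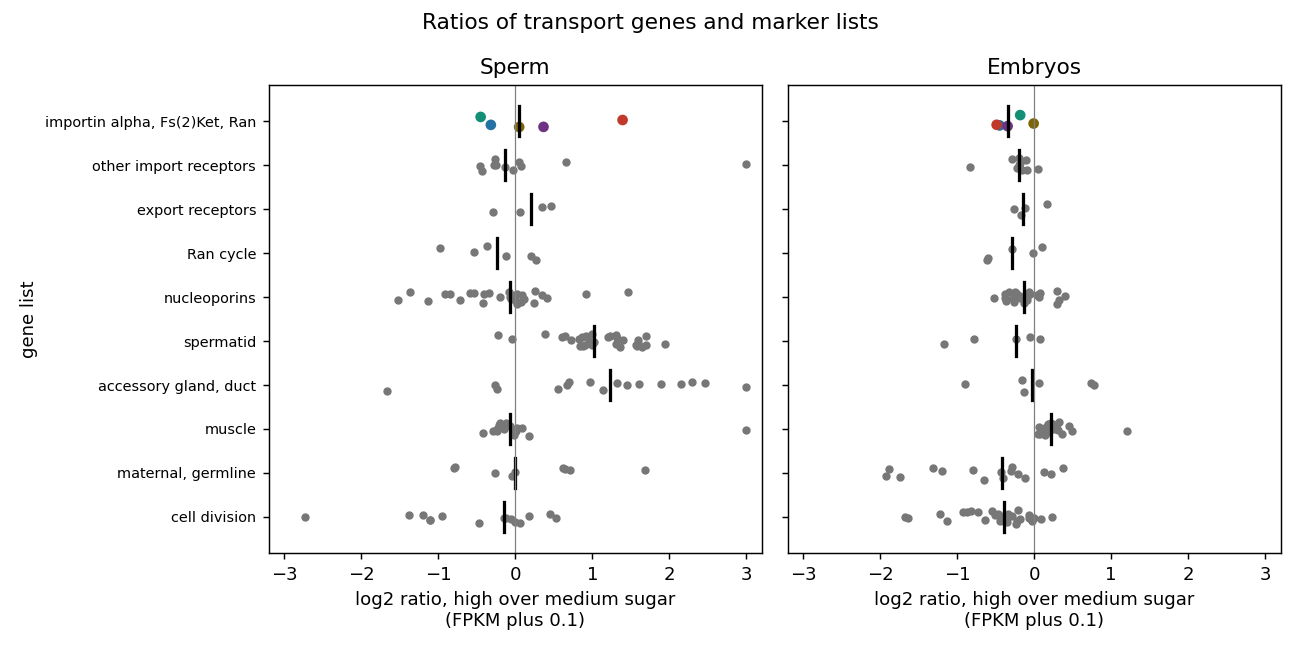
Log2 ratio of high over medium sugar (FPKM plus 0.1) of genes that reached a mean of 1 FPKM, 1 point per gene, for the importin genes and Ran (in colour) and for transport and marker lists (grey), in sperm and in embryos, with black bars at list medians. In sperm Pen (1.39) lies within the spread of the spermatid markers (median 1.02) and of the accessory gland and duct markers (median 1.23). In sperm 3 genes beyond 3 are drawn at the edge.

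The genes most like each of the 5 in pattern were sought over the 4 group values, as the distance between log2 values after centring each gene on its own mean, among 2546 named genes that reached a mean of 5 FPKM in both tables. This likeness uses the values that chose Pen and values across both tables, and is a description. The nearest to Pen were Obp51a, mt:ND2 and Fdh, at distances of 0.854, 0.992 and 1.09, but none of these had a comparable sperm difference: Obp51a, an odorant-binding protein, had 128 and 152 FPKM in sperm and 9.58 and 7.59 FPKM in embryos. Pen itself, with an embryo mean of 1.95 FPKM, is below that floor. Among 3901 genes at 1 FPKM or more the nearest were Mst77F, a chromatin protein of spermatids (20.6 and 54.4 FPKM in sperm, 2.42 and 2.04 FPKM in embryos, distance 0.425), exu, a maternal RNA localization factor also known from the male germline (37.3 and 60.9 FPKM in sperm, 2.94 and 2.54 FPKM in embryos, distance 0.552), and Acp95EF, an accessory gland product (27.2 and 67.8 FPKM in sperm, 3.37 and 3.03 FPKM in embryos, distance 0.588). The locus of Acp95EF is shared with 6 other genes and that of Mst77F with 1, so their values are less certain.

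The other 4 genes had close neighbours in pattern at the higher floor. For Kap-alpha1 these were pod1, Uba2 and rho-7, at distances of 0.0941 to 0.114. Of these Uba2, a subunit of the SUMO-activating enzyme, had 11.2 and 9.58 FPKM in sperm and 21.0 and 15.5 FPKM in embryos. For Kap-alpha3 they were mor, pr-set7 and alien, at 0.0418 to 0.0799, and pr-set7, a histone methyltransferase, had 6.67 and 4.52 FPKM in sperm and 9.50 and 8.57 FPKM in embryos. For Fs(2)Ket they were par-1, Magi and CASK, at 0.0478 to 0.0687, and the polarity kinase par-1 had 49.1 and 50.9 FPKM in sperm and 66.5 and 63.9 FPKM in embryos. For Ran they were Atg12, px and put, at 0.0981 to 0.149, and the autophagy gene Atg12 had 4.51 and 6.11 FPKM in sperm and 18.8 and 14.3 FPKM in embryos. The distance from Pen to its nearest gene was larger than that of any of the other 4 at either floor. Profiles were centred but not scaled, so a wide span such as that of Pen tends to give larger distances. The floors also left out genes low in embryos, among them 28 of 33 spermatid markers at the floor of 1 FPKM. The larger distance of Pen therefore cannot be read as a lack of genes like it.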

How the data were processed

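The libraries were stranded and came from Trizol-extracted total RNA without ribosomal RNA, per the labels' protocols. The submitters' processing notes name TopHat2 2.0.8, Cuffdiff 2.1.1 and the genome build BDGP5, without annotation or options. Per the file headers the deposited values are FPKM, 1 per gene and group, and the authors' p-value with its Benjamini-Hochberg adjusted form. Columns of values per sample left unused number 0. Calls were the authors', at an adjusted p under 0.05, for genes they tested. The adjustment was also recomputed over tested genes and over those at a mean of 1 FPKM or more, and this code was tested on simulated data. Log2 ratios used FPKM plus 0.1, which understates low genes. Ratios without a log are of plain FPKM. No test was refitted, since no values per library were used. Starts count from 0 in the tables, since 2123 of 8936 spans then equal BDGP6 gene lengths against 153 otherwise, and 1 was added. All 54 transport genes were matched, by symbol or gene identifier. Named from each transport list were called genes, the 3 highest in sperm and the 3 widest ratios per tissue at 1 FPKM or more, and up to 2 abundant genes were named per marker list. Marker lists and members were chosen with earlier results of these data known. In sperm 0 of 8 tested neuron and glia markers and 0 of 1 tested cuticle markers were called. Python 3.11.15, numpy 2.4.6 and pandas 2.3.3 were used.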

Additional observations from a re-analysis of the deposited data

Results flagged for a closer look

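Several genes had log2 ratios of opposite sign in sperm and in embryos. Values per library were not used, so whether each library moved this way is unknown, and the difference between tissues was not tested. The sperm minus embryo difference in log2 ratio was 1.88 for Pen (1.39 and -0.49), 0.71 for Ran (0.37 and -0.34) and 0.06 for Fs(2)Ket (0.05 and -0.0052), the last of which rests on ratios close to 0.

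Among the other transport genes named, the difference was 0.86 for Ntf-2, 0.30 for CG32164 and -0.08 for Karybeta3 of the import receptors, 0.18 for emb and 0.63 for Exp6 of the exportins, and 0.87 for Bj1 of the Ran cycle. Of the nucleoporins it was 0.11 for Nup153, -1.45 for Nup75, 1.72 for CG11875, -0.48 for CG7262, 0.77 for CG5857 and 0.18 for sec13. Of these genes Pen was called, in sperm. Bj1, Nup75, CG11875, CG7262 and CG5857 were not tested in sperm and so could not be called there.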

How the results depend on the processing

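Of 101 values under alternatives, 74 kept their direction and their side of the threshold or stayed close. For the 5 genes the pseudocounts and centring left the adjusted p as deposited, and the recomputed adjustment left the ratio unchanged. Part of the 74 was thus fixed by construction. Pen in sperm, with the authors' adjusted p of 0.037 and a log2 ratio of 1.39, necessarily passes an adjusted p under 0.1 and a minimum absolute log2 ratio of 1.  These settings were therefore no check of its call. The number of the 5 genes called in sperm was 0 at an adjusted p under 0.01, and 0 with the adjustment recomputed over tested genes or over those at 1 FPKM or more, where the adjusted p of Pen was 0.0968 in both. Over pseudocounts and centring the log2 ratio of Pen ranged from 1.36 to 1.47 in sperm and from -0.51 to -0.34 in embryos. Centring turned Fs(2)Ket in embryos (0.032) and the sperm median of the transport lists (0.015). The sperm over embryo log2 ratio moved most with scaling. At a common sum without CG18628 it was 4.21 and 6.21 for Pen (medium and high sugar), -1.05 and -0.25 for Ran, 0.057 and 0.27 for Kap-alpha1, 0.27 and 0.086 for Kap-alpha3 and 0.47 and 0.62 for Fs(2)Ket. At equal medians it was 3.92 and 5.79 for Pen, -1.34 and -0.66 for Ran, -0.24 and -0.14 for Kap-alpha1, -0.029 and -0.33 for Kap-alpha3 and 0.18 and 0.20 for Fs(2)Ket. These shifts are the same for every gene by construction. At the lower floor of 1 FPKM, 10 of the 15 genes nearest in pattern remained. No paired analysis was possible because the tables hold 1 combined value per group, and for the same reason leaving out each replicate was not run. Depth is unknown, so no limit for values of 0 can be given.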
